A study of Homo sapiens with 18 samples.

Results

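Core sites are regions bound by both FOXA1 and TLE3 in each of 3 breast cancer lines. In each line, overlapping FOXA1 peaks were merged, and a merged region was kept as a FOXA1 site if both replicates had a peak in it. Sites of the 3 lines were merged, and a merged region with a site of all 3 lines is called a constitutive FOXA1 site. A constitutive site is a core site if it also overlaps, by at least 1 bp, a TLE3 site of MDA-MB-453 (a peak of both replicates), a TLE3 site of T47D (a peak of both replicates) and a peak of SKBR3 TLE3 replicate 1. There were 6164 core sites, which is 14.1% of the 43624 constitutive FOXA1 sites and part of 196570 merged FOXA1 regions. The members were thus chosen by the presence of FOXA1 and TLE3 peaks. FOXA1 scores, positions, sequence and the list of SKBR3 TLE3 replicate 2 were not used. Width was not a criterion, but a wider region can more easily be overlapped by TLE3 peaks, so membership is not independent of width.

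Chromatin immunoprecipitation followed by sequencing (ChIP-seq) had been run for both factors in established human breast epithelial cancer lines, with 2 replicates per factor and line that the labels call biological. MDA-MB-453 lacks the estrogen receptor and has an androgen receptor, SKBR3 carries an ERBB2 amplification and lacks the estrogen receptor too, and T47D is estrogen receptor positive. All cells were fixed with formaldehyde, and those for TLE3 were first treated with an additional crosslinker, so factor and fixation cannot be told apart. No treatment or genotype change is named in the labels. Each line stands for itself alone, and peak lists hold no expression values with which the labelled cell type could be checked. The FOXA1 lists held 107598 to 188029 peaks and the TLE3 lists 21149 to 94363. Reads are not counted in these lists, which leaves depth unknown, and the length of a list sets how many weak peaks can enter the rule. For the library labelled SKBR3 TLE3 replicate 2, 0.9% of its 1000 highest scored peaks lay at core sites, against 66.0% to 81.3% in the other 5 TLE3 lists. Those 5 lists define the core sites and this library does not, so part of that contrast follows from the rule. Apart from the rule, its median peak width was 629 bp, against 326 to 400 bp in the other 5. Its values are given separately.

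FOXA1 is a forkhead protein whose winged-helix domain can bind sites on nucleosomal DNA, and it is described as a pioneer factor that lets hormone receptors and other factors reach their sites in luminal breast cells. TLE3 belongs to the Groucho family of corepressors, which do not bind DNA themselves. They are brought to DNA by partner proteins such as TCF/LEF, RUNX and HES factors and some forkhead proteins, and they in turn bind histones and recruit histone deacetylases.

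Few core sites lie at promoters, but those that do show the DNA at such a region. Of the 6164 core sites, 299 (4.85%) overlapped a promoter window, against 6.92% of all constitutive sites. Such a window is here the 250 bases before to 50 bases after a transcription start in RefSeq (GRCh38.p14). The windows below belong to the 5 best ranked of these 299 sites, ranked by the mean percentile of their best peak over the 11 lists that define core sites. They are printed 5′ to 3′ on the strand of the gene, with the forkhead letters TGTTTAC or TGTTTGC, or their reverse complements, in capitals. LINC02889 (chr7:17558860-17559159, minus strand) and LOC124902174 (chr9:68500635-68500934, minus strand) have none of these letters. Only these exact words were searched, so other forms of a forkhead site are not marked. DNPEP (chr2:219399958-219400257, minus strand) has 1 match, LOC124907883 (chr2:127226569-127226868, plus strand) has 2, and RHOH (chr4:40190830-40191129, plus strand, the nearest of its 3 windows to the centre of the site) has 1.
LINC02889: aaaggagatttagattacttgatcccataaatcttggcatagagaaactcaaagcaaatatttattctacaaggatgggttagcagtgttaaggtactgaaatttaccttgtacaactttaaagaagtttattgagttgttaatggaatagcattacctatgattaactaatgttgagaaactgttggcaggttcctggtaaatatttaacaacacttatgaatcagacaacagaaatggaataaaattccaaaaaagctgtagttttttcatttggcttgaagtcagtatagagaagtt
DNPEP: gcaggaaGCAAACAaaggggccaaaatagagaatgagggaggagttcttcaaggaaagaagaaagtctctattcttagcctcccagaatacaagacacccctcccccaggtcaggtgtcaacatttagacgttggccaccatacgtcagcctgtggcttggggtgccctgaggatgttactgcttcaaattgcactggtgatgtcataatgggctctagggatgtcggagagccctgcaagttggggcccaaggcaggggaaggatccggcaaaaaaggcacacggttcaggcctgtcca
LOC124902174: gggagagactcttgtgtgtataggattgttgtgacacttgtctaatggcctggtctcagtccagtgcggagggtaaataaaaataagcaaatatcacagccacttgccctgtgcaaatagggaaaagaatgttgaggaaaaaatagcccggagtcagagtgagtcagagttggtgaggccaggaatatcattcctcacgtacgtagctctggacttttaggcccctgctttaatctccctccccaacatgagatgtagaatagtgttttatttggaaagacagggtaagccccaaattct
LOC124907883: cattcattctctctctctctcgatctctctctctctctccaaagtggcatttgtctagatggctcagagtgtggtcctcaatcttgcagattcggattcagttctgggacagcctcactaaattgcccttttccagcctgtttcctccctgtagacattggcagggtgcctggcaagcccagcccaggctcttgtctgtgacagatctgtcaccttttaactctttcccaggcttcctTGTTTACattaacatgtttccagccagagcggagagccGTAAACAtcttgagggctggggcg
RHOH: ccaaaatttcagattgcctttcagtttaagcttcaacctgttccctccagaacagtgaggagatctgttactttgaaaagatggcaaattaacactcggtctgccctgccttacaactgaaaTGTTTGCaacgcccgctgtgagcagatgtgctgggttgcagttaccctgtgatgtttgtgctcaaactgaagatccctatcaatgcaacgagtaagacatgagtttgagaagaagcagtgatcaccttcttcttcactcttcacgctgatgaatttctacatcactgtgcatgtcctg
DNPEP encodes an aspartyl aminopeptidase and RHOH a small GTPase of blood cells. The LINC and LOC entries are annotated without a protein name in the table used.

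The site at the DNPEP window, 2672 bp wide, held the highest scored peak of the whole list of T47D FOXA1 replicate 2, with a score of 663.759. Whether that peak covers the printed window was not checked. In T47D FOXA1 replicate 1 the same site scored 599.273, in a list whose highest score was 599.358. Its percentile, the rank of the score within its own list, was 99.7 and 99.9 in the MDA-MB-453 FOXA1 replicates and 99.4 and 99.9 in those of SKBR3. For TLE3 the percentiles were 98.4 and 96.6 in MDA-MB-453, 98.4 in SKBR3 replicate 1, and 99.3 and 99.7 in T47D. All 11 lists thus placed this region near the top, while SKBR3 TLE3 replicate 2 held a peak there at percentile 31.1. The LOC124907883 region, with forkhead matches at positions -12 and 26 (the start base is 0), had percentiles of 99.8 to 99.99 in the 6 FOXA1 lists and 95.4 to 98.9 in the 5 TLE3 lists.

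FOXA1 peaks ranked higher at core sites than at constitutive FOXA1 sites without TLE3 in each of the 6 FOXA1 lists. The median percentile of core sites was 95.7 and 94.7 in MDA-MB-453 replicates 1 and 2, 93.2 and 94.2 in SKBR3, and 94.96 and 94.4 in T47D. Sites without TLE3 are the 21251 constitutive sites that met the TLE3 part of the rule in no line. There the median was 72.7 and 66.3 in MDA-MB-453, 58.0 and 59.7 in SKBR3, and 70.2 and 72.2 in T47D. Some still held TLE3 peaks that the rule did not count. A peak of MDA-MB-453 TLE3 replicate 1 was at 15.1%, of T47D TLE3 replicate 2 at 25.3% and of SKBR3 TLE3 replicate 2 at 29.1%. Any other TLE3 list had a peak at 0.621% or fewer. No library's core median fell within the range of the medians without TLE3. The comparison is made as a rank probability, the chance that a core site has the higher FOXA1 score of a random pair, where 0.5 means no difference. It was 0.894 ± 0.0283 (SD, n = 6 libraries; 0.839 to 0.914) against sites without TLE3. Flipping the sign of each library's deviation, an exact two-sided permutation test with n = 6, gave p = 0.03125 (Benjamini-Hochberg over 2 comparisons 0.03125), the smallest p this design allows, with 6 of 6 libraries above 0.5. The test counts the 2 replicates of a line, which rank the sites almost alike, as separate units. With the 3 lines as units the exact permutation p was 0.25, the smallest that 3 lines allow, with all 3 above 0.5. How the replicates were grown is not labelled, and the p measures only the spread between these libraries.

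**Figure D1:**
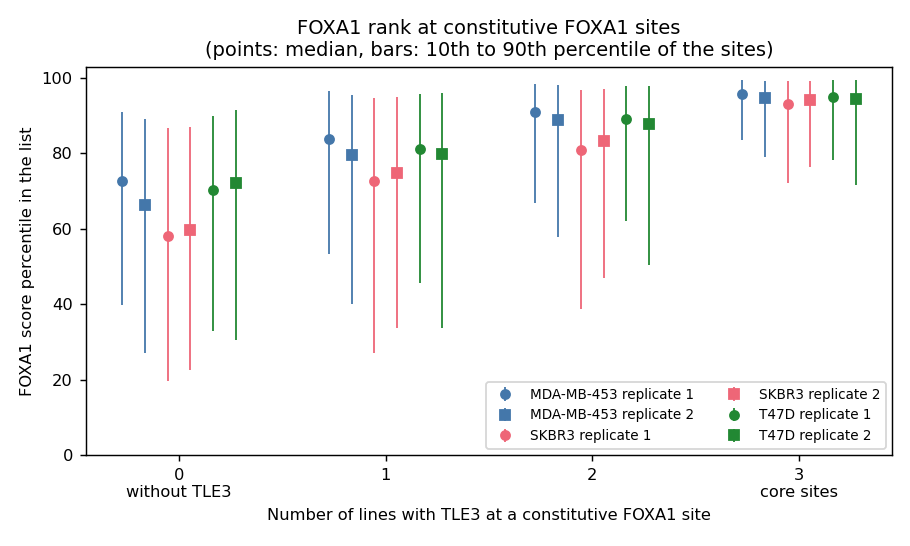
FOXA1 score percentile (vertical axis, percent of the list) at constitutive FOXA1 sites with TLE3 in 0, 1, 2 or 3 lines (horizontal axis), with points for the median of the sites in each of the 6 FOXA1 libraries and bars from the 10th to the 90th percentile of the sites. The medians lie at 58.0 to 72.7 without TLE3 and at 93.2 to 95.7 at core sites, and the bars of neighbouring groups overlap.

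FOXA1 peaks also ranked higher at core sites than at sites with TLE3 in some lines, with a smaller rank probability in each of the 6 libraries. At the 16209 constitutive sites with TLE3 in 1 or 2 lines, median FOXA1 percentiles were 87.2 and 84.1 in MDA-MB-453, 76.5 and 78.9 in SKBR3, and 84.9 and 83.7 in T47D. The rank probability of core sites against them was 0.749 ± 0.0208 (SD, n = 6 libraries; 0.718 to 0.778), with the same smallest exact p of 0.03125 (adjusted 0.03125) and 6 of 6 libraries above 0.5. Against the 6943 sites with TLE3 in 2 lines, given as a description, it was 0.689 ± 0.0294 (SD, n = 6). In every list the medians thus rose with the number of lines that held TLE3, with 58.0 to 72.7 for 0 lines, 72.7 to 83.7 for 1 line, 81.0 to 91.1 for 2 lines and 93.2 to 95.7 for 3 lines.

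Width moved with this result. Core sites had a median merged width of 1188.5 bp, against 975 bp for sites with TLE3 in 1 or 2 lines and 663 bp for sites without TLE3, and 10.7% of core sites were over 2 kb wide, against 0.527% of sites without TLE3. Equally long lists of 21149 peaks gave rank probabilities of 0.739 against sites without TLE3 and 0.648 against sites with TLE3 in 1 or 2 lines. A further comparison matched the width of each site's best FOXA1 peak in the library, in 5 width classes of equal size. Within these classes the rank probability was 0.669 ± 0.0326 against sites without TLE3. Against sites with TLE3 in 1 or 2 lines it was 0.653 ± 0.0180 (SD, n = 6 libraries each). Both rank probabilities stayed above 0.5 in each of the 6 libraries (lowest 0.608 and 0.620). The merged width of the site was not matched. Peak width and peak score come from the same reads.

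The strongest constitutive FOXA1 regions were largely core regions. Of 43624 constitutive sites, 4118 (9.44%) were in the top 10% of all 6 FOXA1 lists. Among core sites 2828 were, or 45.9% (95% Wilson interval 44.6% to 47.1%), against 6.25% of sites with TLE3 in 1 or 2 lines and 1.30% of sites without TLE3. Seen from the other side, 68.7% of those 4118 sites were core sites and 6.73% were sites without TLE3. Such intervals cover counting error only, and neighbouring regions are not independent. Core sites made up 53.6% and 58.0% of the 1000 highest scored FOXA1 peaks in MDA-MB-453, 66.8% and 70.7% in SKBR3, and 72.4% and 70.8% in T47D, while they held only 3.59% to 6.30% of all peaks of these lists.

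Core sites were not uniformly strong. Their mean percentile over the 11 lists ranged between 30.1 and 99.8 with a median of 85.0. A total of 3039 core sites (49.3%) were above the median of all 11 lists, and 471 (7.64%) were in the top 10% of all 11. The TLE3 values, which the rule used and which are given only as a description, had medians of 84.7 and 70.6 in MDA-MB-453, 74.2 in SKBR3 replicate 1, and 81.4 and 91.1 in T47D. Percentiles of TLE3 and FOXA1 cannot be set against each other, since the FOXA1 lists are longer.

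**Figure D2:**
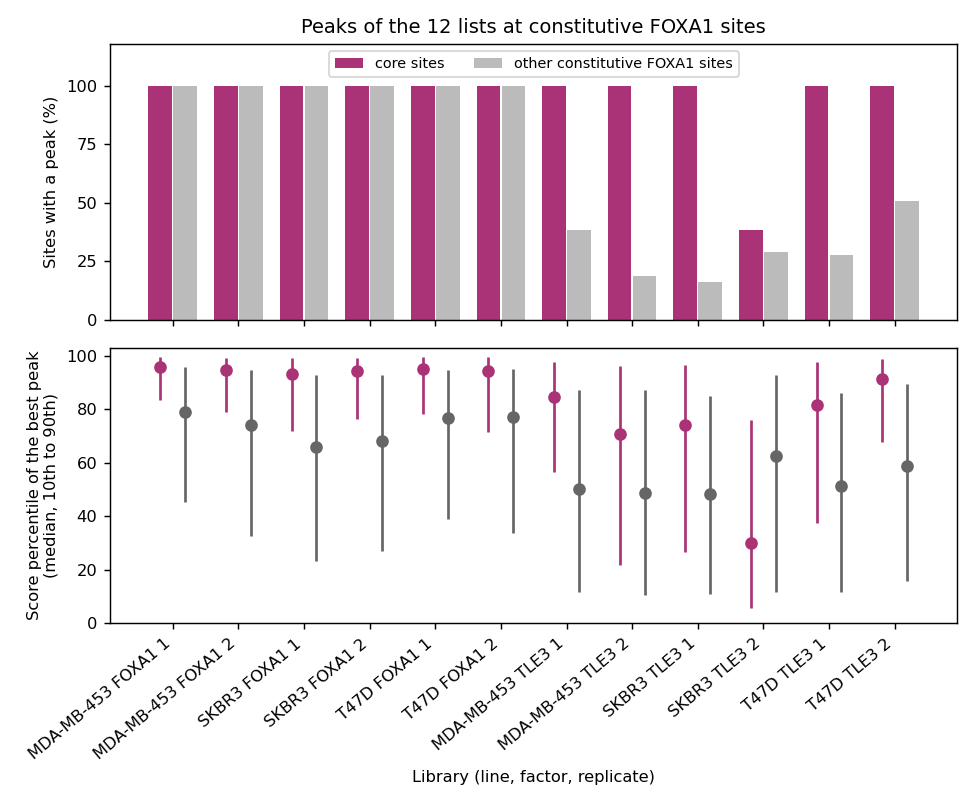
Share of sites with a peak (upper panel, percent) and score percentile of the best peak where there is one (lower panel, median with the 10th to 90th percentile) in each of the 12 libraries, with core sites left and other constitutive FOXA1 sites right. FOXA1 presence is fixed at 100% by the rule in both groups and TLE3 presence in the 5 lists used is fixed at core sites, and SKBR3 TLE3 replicate 2 is the library in which the core median of 30.0 lies below that of the other sites, 62.5.

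FOXA1 and TLE3 peaks were centred close together at core sites, as a description. The rule asks that TLE3 overlaps the FOXA1 region, so part of this nearness follows from it. Distances were measured at core sites only. The lists give no summits, so the peak centre stands for its position. TLE3 and FOXA1 centres of the same line were 55.5 to 66.5 bp apart in the median. FOXA1 replicates of a line were 34.0 to 35.5 bp apart, and TLE3 replicates 33.5 bp apart in MDA-MB-453 and 41.0 bp in T47D. Between lines, FOXA1 centres differed by 47 to 54 bp and TLE3 centres by 43.5 to 44.5 bp. The TLE3 centre was thus farther from the FOXA1 centre of its own line than from the TLE3 centre of another line, by medians over about the same 6164 sites. FOXA1 peaks at core sites were also wider, with medians of 807 to 974.5 bp, against 396 to 732 bp for TLE3. Whether peak width moves the centres was not tested.

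Scores of core sites were most alike between replicates and least alike between different factors in different lines. Across the core sites, Spearman correlations of the scores, which describe the sites and carry no test, were 0.973 to 0.980 between FOXA1 replicates of a line and 0.933 to 0.955 between TLE3 replicates of a line. FOXA1 and TLE3 of the same line correlated at 0.574 to 0.685. FOXA1 of different lines correlated at 0.568 to 0.668, TLE3 of different lines at 0.332 to 0.475, and FOXA1 of a line with TLE3 of another at 0.227 to 0.386. Scores of TLE3 were closer to those of FOXA1 in the same line than to those of TLE3 in another line. Replicates share the line, and all lists share the width and base composition of the sites.

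The library labelled SKBR3 TLE3 replicate 2, which took no part in the rule, held a peak at 2356 core sites. This is 38.2% (Wilson interval 37.0% to 39.4%), against 28.6% of sites with TLE3 in 1 or 2 lines and 29.1% of sites without TLE3, with 30.2% over all constitutive sites. In a window of 500 bp at the centre of every site, which makes the widths equal, the shares were 33.6% at core sites and 27.7% at sites without TLE3. Where it did hold a peak, its median percentile was 30.0 at core sites, against 74.7 at sites without TLE3. Its centre lay 202.5 and 203.75 bp from the 2 FOXA1 centres of SKBR3, and its scores had correlations of -0.110 to -0.0225 with those of the other 11 lists. With 1 such library, no test of these values is possible. With equally long lists of 21149 peaks the difference in share had the opposite sign, 11.7 percentage points lower at core sites than the 50.5% of sites without TLE3.

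Most core sites were far from protein-coding starts, although many lay inside genes. The median distance from the centre of a core site to the nearest protein-coding transcription start was 62882.5 bp, against 57098 bp at constitutive sites without TLE3. Within 1 kb of such a start lay 188 core sites, or 3.05% (Wilson interval 2.65% to 3.51%), against 7.37% (6.98% to 7.78%) of sites with TLE3 in 1 or 2 lines and 7.16% (6.82% to 7.52%) of sites without TLE3. At the other distances the groups differed less. The bin of 20 to 50 kb held 20.2% of core sites, against 17.1% with TLE3 in 1 or 2 lines and 17.5% without TLE3. Protein-coding genes contained 49.9% of core sites, against 51.1% of sites without TLE3. Distances to starts were not computed under other definitions of the core. The related difference at gene ends, given next, changed sign under some of them.

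**Figure D3:**
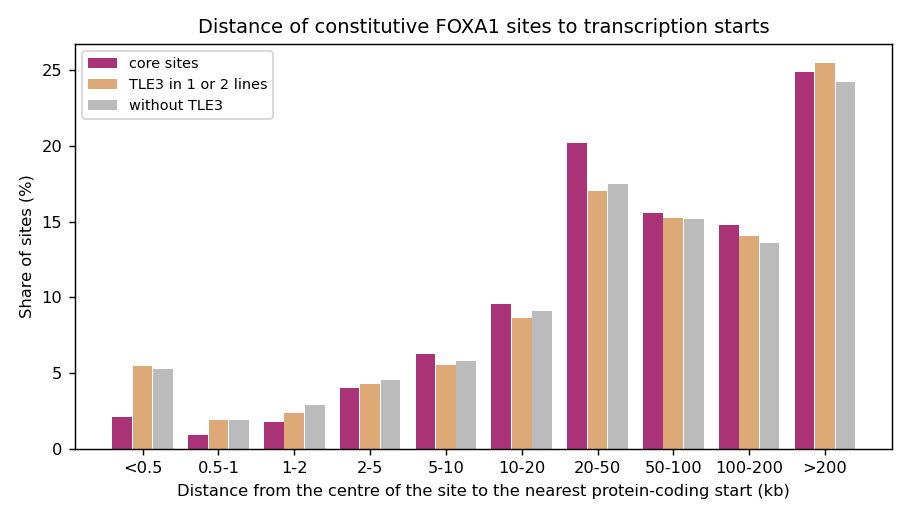
Share of sites (vertical axis, percent) by distance from the centre of the site to the nearest protein-coding transcription start (horizontal axis, kb), for core sites, sites with TLE3 in 1 or 2 lines and sites without TLE3. Core sites are fewer in the first bin, at 2.11%, against 5.49% and 5.28%, and more frequent between 20 and 50 kb.

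Counted against either end of any annotated gene, 607 core sites (9.85%, Wilson interval 9.13% to 10.6%) lay within 1 kb, against 13.1% of all constitutive sites and 13.5% of those without TLE3. Sites with TLE3 in 2 lines had 10.3% and those with TLE3 in 1 line 16.4%. This difference depends on which TLE3 lists define the core. Where a TLE3 site needed both SKBR3 replicates, the share was 15.5%, against 12.9% without TLE3. Without SKBR3 TLE3 replicate 1, so that replicate 2 alone stood for SKBR3, it was 17.3%, and the difference from sites without TLE3 became 9.23 percentage points in the other direction. Where a peak of either replicate was enough, the share was 10.8%, against 9.71%. With equally long lists it was 9.36%, against 22.7%, and without T47D TLE3 replicate 1 the difference was -0.709 percentage points. FOXA1 rank probabilities against sites without TLE3 were 0.869 ± 0.0259 within 1 kb of a gene end and 0.897 ± 0.0282 elsewhere (SD, n = 6 libraries each), so the FOXA1 difference was present at both positions.

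Core sites were spread over the genome. By chromosome, their share of constitutive sites ranged between 12.6% and 16.1%. Of 2778 bins of 1 Mb with a constitutive site, 2131 held a core site and 26 held 10 or more, with 293 core sites together. The fullest bin, on chromosome 3 between 189 and 190 Mb, held 17 core sites of 57 constitutive sites and contains TPRG1 and TP63, the gene of the p63 protein of basal epithelium. Around core sites, 17.2% of the constitutive neighbours within 50 kb were core sites, against 15.6% of the neighbours of a site without TLE3.

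The 15 best ranked core sites had percentiles of 98.7 or more in all 11 lists, as their choice by mean percentile asks. The first lay inside HERC6 (chr4:88411096-88412183), a gene of a HECT-domain protein induced by interferon. Its FOXA1 percentiles were 99.96 and 99.98 in MDA-MB-453, 99.99 and 99.999 in SKBR3, and 99.94 and 99.81 in T47D. Its TLE3 percentiles were 99.4 and 99.7 in MDA-MB-453, 99.5 in SKBR3 replicate 1, and 99.6 and 99.9 in T47D, and SKBR3 TLE3 replicate 2 had no peak there. Thus the region was among the strongest of every list that the rule used.

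The next 3 were nearest to NEBL, a cytoskeletal gene 156201 bp away (chr10:20622346-20623771), inside IGF2BP3, an RNA-binding protein gene (chr7:23334301-23335366), and 1532758 bp from SPRY2, a feedback inhibitor of receptor tyrosine kinase signalling (chr13:81873885-81874983). The other 11 were nearest to or inside C1orf202, TM2D1, IKZF2, EYA2, GMDS, SATB1, TNFSF8, FBXO4, BHMT, AMOTL1 and EPHA6. IKZF2 and SATB1 encode DNA-binding proteins of lymphocytes, EYA2 a transcriptional coactivator, and EPHA6 an ephrin receptor. Of these 15 sites, 10 were also among the first 15 when ranked by their lowest percentile. SKBR3 TLE3 replicate 2 had no peak at 4 of the 15 sites, and its percentiles at the other 11 ranged between 0.281 and 94.2.

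At the lower edge of the core, the site with the lowest mean percentile, 30.1, lay 3 bp from a start of LARP1, which encodes an RNA-binding regulator of translation (chr5:154682442-154683521). Its FOXA1 percentiles were 43.2 and 39.7 in MDA-MB-453, 1.17 and 1.05 in SKBR3, and 43.1 and 35.6 in T47D. Its TLE3 percentiles were 11.3 and 10.1 in MDA-MB-453, 4.97 in SKBR3 replicate 1, and 55.0 and 85.9 in T47D. Sites in TOM1 and TMEM131L followed with mean percentiles of 37.4 and 37.6. Just outside the core, 5641 constitutive sites had a peak of 4 of the 5 TLE3 lists, and 3241 of these missed SKBR3 TLE3 replicate 1, the shortest list. The best ranked of them lay in GCNT2 (chr6:10612814-10613953), with percentiles of 99.5 or more in the other 4 TLE3 lists, in the readthrough gene ZNF664-RFLNA, and 169208 bp from DIPK2A. Some sites outside the rule therefore ranked well above the lowest within it.

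Core sites were within 50 kb of 5609 of the 19974 protein-coding genes (28.1%). The genes with most of them are long, which gives more room: MACROD2 had 11 of 38 constitutive sites, DLG2 10 of 37, RAD51B 10 of 74, GSE1 10 of 31 and AUTS2 9 of 48. TPRG1 had 8 of 20, TP63 8 of 27, ARHGAP26 8 of 25, EYS 8 of 31 and KCNMA1 8 of 47. MACROD2, DLG2 and EYS span 2057682, 2173362 and 1987247 bp. RAD51B encodes a recombination protein, GSE1 a partner of histone demethylase complexes and KCNMA1 a potassium channel.

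Among 12 gene lists, 10 had a larger share of genes with a core site than the 28.1% of all protein-coding genes, and the cell cycle and other cell type lists had a smaller one. A site near 2 genes counts for both, and the lists hold few genes, so the counts are a description. The lists differ in how many constitutive FOXA1 sites their genes have. The median per gene was 8.5 for luminal identity and 1.5 for other cell types, against 2 for all protein-coding genes. The share of those sites that are core is therefore given beside the counts, with 13.4% over all protein-coding genes.

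Genes of luminal identity, the program of hormone-sensing and secretory mammary cells, had a core site in 16 of 22 cases, and 41 of their 205 constitutive sites were core. FOXA1 itself had 4 core sites among 18, SPDEF, an ETS factor of secretory epithelium, 4 among 10, the simple-epithelial keratin gene KRT7 4 among 13 and the prolactin receptor gene PRLR 4 among 13. No core site was within 50 kb of MUC1, TFAP2B, CLDN4 or ESRP1. The best FOXA1 site lay in the neighbouring gene MIPOL1 (chr14:37545758-37547994), 48373 bp from the FOXA1 start, and ranked 275 of 6164. Its FOXA1 percentiles were 99.4 and 99.6 in MDA-MB-453, 99.9 and 99.9 in SKBR3, and 99.96 and 99.995 in T47D. Its TLE3 percentiles were 92.7 and 87.9 in MDA-MB-453, 98.9 in SKBR3 replicate 1, and 99.3 and 99.6 in T47D. Each of the 6 FOXA1 lists placed the site in its top 1%. Percentiles come from lists of different length and do not compare binding between lines.

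GATA3, a zinc-finger factor that defines luminal cells, had 2 core sites among 7. The better one lay inside the gene, 481 bp from a start (chr10:8050167-8051342), and ranked 3196. Its FOXA1 percentiles were 97.3 and 96.0 in MDA-MB-453, 93.7 and 94.0 in SKBR3, and 98.9 and 99.5 in T47D. Its TLE3 percentiles were 47.1 and 41.2 in MDA-MB-453, 89.3 in SKBR3 replicate 1, and 77.3 and 94.4 in T47D. All 6 FOXA1 values were high, while the MDA-MB-453 TLE3 values were below the median of their lists. KRT8, another simple-epithelial keratin gene, had 3 core sites among 10, the best 851 bp from the gene with FOXA1 percentiles between 91.4 and 96.6 and TLE3 percentiles between 72.7 and 90.4.

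Core sites were also present at genes of the basal program, the identity of the contractile and stem-like outer layer of the gland. A core site was near 11 of 20 genes, and 21 of 81 constitutive sites (25.9%) were core. TP63 had 8 of these 21, of which 5 inside the gene, and ITGA6, KRT15 and KRT14 had 2 each. KRT15 and KRT14 had the same best core site (chr17:41537602-41539947), which is counted for each. It lay 18711 bp from KRT15 and 42331 bp from KRT14, but 9293 bp from KRT19 of the luminal list. The best TP63 site (chr3:189712731-189713681) had FOXA1 percentiles between 97.6 and 99.1 and TLE3 percentiles between 94.9 and 99.3 in the 5 TLE3 lists. Within 10 kb, 3 of 20 basal genes had a core site, a share near the 14.9% of all protein-coding genes. FOXC1, CAV1, CAV2 and VIM had no core site, and KRT5 had neither a core nor a constitutive site within 50 kb.

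Of 17 estrogen response genes, 9 had a core site, and 12 of their 100 constitutive sites were core, a share near that of all genes. TFF3, MREG and MYB had 2 each and PDZK1 had 1. ESR1, which encodes the estrogen receptor, had 0 core sites among 13 constitutive sites, of which 8 were sites without TLE3. GREB1, SIAH2 and CXCL12 had no core site. Of 14 androgen response and apocrine genes, 10 had one, with 14 of 74 sites (18.9%). AZGP1, a secreted zinc glycoprotein gene, had 3, ZBTB16 and PIP 2 each and ALCAM 1, while UGT2B28, FKBP5 and SEC14L2 had none.

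The ERBB pathway list, with receptors, ligands and feedback inhibitors of epidermal growth factor signalling, had a core site at 10 of 16 genes and 27 of 107 constitutive sites (25.2%) that were core. ERBB2, the receptor amplified in SKBR3, had 6 among 10, and its neighbour GRB7, an adaptor, 5 among 8. These 2 genes share sites, among them the best one inside ERBB2 (chr17:39702418-39704141). There the FOXA1 percentiles were 96.1 and 97.9 in MDA-MB-453, 92.4 and 91.6 in SKBR3, and 99.5 and 99.8 in T47D. The TLE3 percentiles were 97.5 and 97.7 in MDA-MB-453, 96.1 in SKBR3 replicate 1, and 98.0 and 99.3 in T47D. The extra gene copies of SKBR3 were not corrected for in any value used here. GAB1, an adaptor, and DUSP4, a phosphatase of MAP kinases, had 3 core sites each, and EREG, EGF, NRG1 and ERBB3 had none.

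Among DNA-binding partners of Groucho proteins, 9 of 17 genes had a core site and 19 of 94 constitutive sites (20.2%) were core. HES1, a NOTCH target that recruits Groucho proteins, had 3, and TCF7L1 had 2. The best HES1 site lay 745 bp from the gene (chr3:194134401-194135402), with FOXA1 percentiles between 94.2 and 99.2 and TLE3 percentiles of 88.9 and 79.7 in MDA-MB-453, 99.9 in SKBR3 replicate 1, and 98.8 and 98.9 in T47D. HES4, RUNX3, TCF7 and HEY1 had no core site. Corepressor genes had a core site in 9 of 14 cases, with 17 of 83 sites (20.5%). TLE1, another Groucho corepressor gene, and CTBP2 had 4 each, and NCOR1 had 2, while CTBP1, HDAC3, HDAC2 and SIN3A had none.

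TLE3 had 1 core site among 7 constitutive sites, inside the gene and 1135 bp from a start (chr15:70093132-70094176, rank 641). Its FOXA1 percentiles were 98.2 and 95.4 in MDA-MB-453, 98.2 and 98.8 in SKBR3, and 99.8 and 99.8 in T47D. Its TLE3 percentiles were 93.8 and 83.0 in MDA-MB-453, 90.1 in SKBR3 replicate 1, and 99.7 and 99.9 in T47D. So a core site lay within 50 kb of the gene of each factor, which also holds for 28.1% of all protein-coding genes.

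For WNT targets and feedback genes 6 of 10 had a core site (8 of 40 constitutive sites), led by ZNRF3, a ubiquitin ligase that removes WNT receptors, with 3. DKK1, LGR5 and RNF43 had 1 each, and SP5, CD44, TNFRSF19 and NKD1 had none. For TGF-beta and epithelial-mesenchymal transition 9 of 16 had one (12 of 72 sites, 16.7%), with 3 at the signal transducer gene SMAD3, 2 at the ligand gene TGFB2 and 1 each at TGFBR3 and FN1. ZEB2, TWIST1, SNAI2 and TGFBR1 had none. For forkhead genes 6 of 13 had one (18 of 113 sites, 15.9%). FOXP1 had 7, FOXA1 4 and FOXQ1 and FOXO3 2 each, while FOXI1, FOXC1, FOXM1 and FOXO1 had none.

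Cell cycle genes had the smallest shares within 50 kb. Of 16 genes, 15 had a constitutive FOXA1 site within 50 kb but 2 had a core site, CCNE1 and TOP2A, and 2 of 41 constitutive sites (4.88%) were core. The TOP2A site, which ranked 5565 of 6164, had TLE3 percentiles of 67.1 and 42.6 in MDA-MB-453, 97.8 in SKBR3 replicate 1, and 31.0 and 72.8 in T47D. CDC20, BUB1, MCM2 and CCNA2 had no core site. Within 100 kb, 6 of 16 cell cycle genes had one (37.5%), against 41.3% of all protein-coding genes. Genes of other cell types had a core site in 3 of 16 cases, CD3E, DES and TYR with 2 each, and 6 of 32 constitutive sites (18.8%) were core. The best DES site is the DNPEP promoter region printed above, 17367 bp from DES, so nearness does not say which gene a site belongs to. PTPRC, GCG, NEUROD1 and ALB had none.

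**Figure D4:**
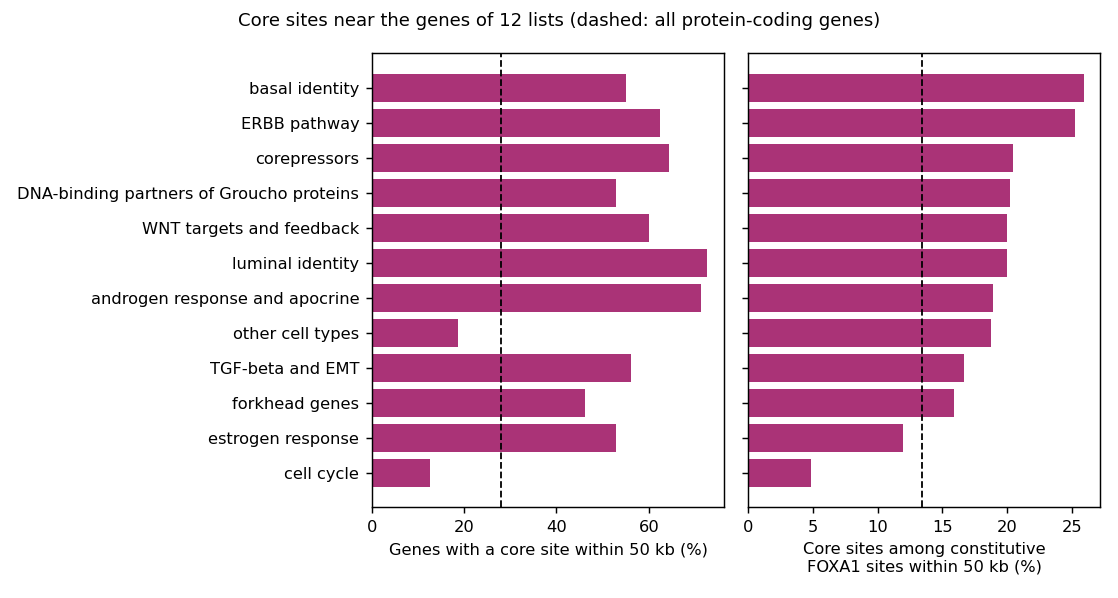
Share of listed genes with a core site within 50 kb (left, percent) and share of their constitutive FOXA1 sites that are core (right, percent) for 12 gene lists, with the dashed line at the value of all protein-coding genes, 28.1% and 13.4%. Basal identity and ERBB pathway genes have the largest core share at 25.9% and 25.2%, and cell cycle genes the smallest at 4.88%. A site near 2 genes counts for both, and TP63 gives 8 of the 21 core sites counted for basal identity.

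Forkhead letters were more frequent in promoter windows at core sites than in those at other constitutive sites. The words TGTTTAC and TGTTTGC were searched on both strands. At least 1 was present in 74 of 388 windows at core sites (19.1%, Wilson interval 15.5% to 23.3%), against 506 of 3874 windows at other constitutive sites (13.1%, 12.04% to 14.2%) and 7.16% of all 34789 windows. TGTTTGC was present in 9.79% of windows at core sites, against 5.03% at other constitutive sites and 3.88% of all windows. TGTTTAC was present in 9.54%, against 8.21% and 3.42%, so the difference lay mostly in TGTTTGC. These windows belong to 299 core sites, a small and atypical part of 6164, and overlapping windows of 1 site are not independent.

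Base composition moved with this difference. The median GC content was 56.3% in windows at core sites, against 61.7% at other constitutive sites, and the median number of CpG 10 against 23. In windows up to 47% GC the forkhead share was lower at core sites, 20.9% of 110, against 27.9% of 451. It was higher between 47% and 58.7% GC, 24.8% against 15.02%, between 58.7% and 68% GC, 18.2% against 9.53%, and above 68% GC, 11.5% against 9.28%. With equally long lists the difference over all windows had the opposite sign, 2.92 percentage points lower at core sites than the 25.8% at other constitutive sites.

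The matches lay close to the FOXA1 peak centres. Within 100 bp of the centre, windows at core sites held 17.2 matches per 10 kb (39 matches), against 9.92 at other constitutive sites. Between 100 and 250 bp the densities were 6.79 and 3.67, and between 250 and 500 bp 3.64 and 2.22, while all promoter windows held 2.505. In both groups the density fell with the distance from the centre.

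**Figure D5:**
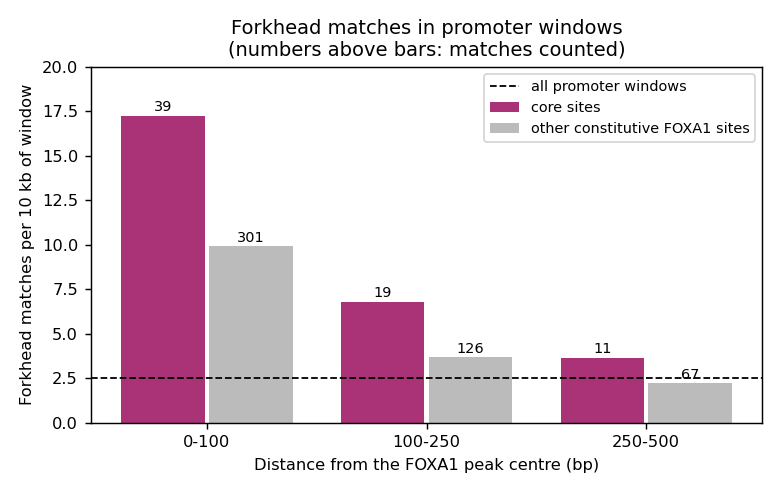
Forkhead matches per 10 kb of promoter window (vertical axis) by distance from the FOXA1 peak centre (horizontal axis, bp), with core sites left and other constitutive FOXA1 sites right, and the dashed line at 2.505 for all promoter windows. The bars fall with distance in both groups, and the innermost bar of core sites, 17.2, rests on 39 matches.

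Letters of other factor families, searched after the forkhead result was known, also differed between promoter windows at core sites and at other constitutive sites. They were searched on both strands, and TGANTCA and CACGTG read the same on both. The AP-1 word TGANTCA was present in 12.4% of windows at core sites, against 6.69% at other constitutive sites and 7.69% of all windows. The GATA word AGATAA was present in 11.6%, against 6.38% and 10.4%. The ETS word CCGGAAG was present in 5.15%, against 17.0% and 10.2%, and the GC box GGGCGG in 43.3%, against 61.9% and 44.9%. For letters of Groucho partners, the TCF/LEF word CTTTGAT was present in 1.29%, against 1.91% and 2.64%. The RUNX word TGTGGTT was present in 4.12%, against 3.02% and 4.28%, and the E-box CACGTG in 9.02%, against 9.73% and 7.24%. Windows at core sites had a median GC content of 56.3%, against 61.7% at other constitutive sites, and fewer CpG. These other words were not counted within classes of GC content, so composition and factor family cannot be told apart here. A match is a description of letters and says nothing of whether a factor is bound.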

How the data were processed

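Per the labels' protocols, cells were immunoprecipitated with the Diagenode iDeal kit for transcription factors, with a Diagenode FOXA1 antibody or a Proteintech TLE3 antibody. The submitters' processing notes name BWA 0.7.5a, MACS2, SAMtools and Trim Galore and the build hg38. What caller settings, controls and filters were used is not given in the sources used here. The authors deposited 1 peak list per library, not pooled over replicates, with a score per peak that is their own value. The sources used here do not name its quantity, so it served to rank and filter each list's own peaks. The 6 input samples were not analysed here. Samples were grouped by line and factor in their titles.

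From the deposited lists, 1134194 peaks on chromosomes 1 to 22 and X were used and 15 left out. Peaks were merged where they overlap by at least 1 bp. A site takes its best scored peak of each list, as a percentile of that list. Rank probabilities were compared within each library and tested over 6 FOXA1 libraries by exact two-sided sign-flip permutation, with 64 arrangements, Benjamini-Hochberg adjustment over 2 and a threshold of 0.05. Shares of sites have 95% Wilson intervals and no test, since sites are not replicates. Gene positions and promoter windows came from RefSeq (GRCh38.p14), the build of the lists. All 191 entries of 12 gene lists matched a symbol. The members, gene lists and tests were chosen with earlier results of these data known. Named are the 15 best ranked core sites, the best ranked promoter sites, the 10 genes with most core sites, up to 4 members of each list with most and with no core sites (ties by genome order), and FOXA1, TLE3, ESR1, ERBB2, GATA3, KRT5 and KRT8. Some names this rule gives are not reported here. Alternatives were a stricter overlap, centres within 250 bp, the upper 50% of each list, equally long lists, a peak of either replicate, both SKBR3 TLE3 replicates, other windows to genes, each library left out and, added after seeing the data, the 3 lines as units. The scripts (Python 3.11.15, numpy 2.4.6, pandas 2.3.3, scipy 1.17.1) were tested on simulated data.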

Additional observations from a re-analysis of the deposited data

Results flagged for a closer look

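The FOXA1 rank probability of core sites against constitutive sites without TLE3 was 0.839 in T47D FOXA1 replicate 2, while the other 5 FOXA1 libraries had 0.890 to 0.914. It was singled out because its gap to the nearest library was 0.683 of the range of the 6, above the critical value of 0.625 for 6 samples. Chance flags about 1 in 20 groups, and 1 of 7 groups examined was flagged. Without this library the values had p = 0.0625, the smallest an exact sign-flip permutation over 5 libraries allows.

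Peaks at core sites were also present in a library outside the rule. SKBR3 TLE3 replicate 2 held a peak at 38.2% of core sites, against 30.2% of all constitutive FOXA1 sites, and no control list was used here to set a background for it. Its peaks at core sites had a median percentile of 30.0, against 74.7 at sites without TLE3. With equally long lists its share was 11.7 percentage points lower at core sites than the 50.5% at sites without TLE3. Few of its highest peaks lie at core sites, and whether its label is right is not known.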

How the results depend on the processing

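The call that FOXA1 ranks higher at core sites was the same under 14 alternatives for each comparison. Equally long lists gave rank probabilities of 0.739 and 0.648, against 0.894 and 0.749 with all peaks. With the 3 lines as units, chosen after seeing the data, the same means of 0.894 and 0.749 had an exact permutation p of 0.25, the smallest possible. Leaving out a FOXA1 library gave an exact sign-flip permutation p = 0.0625, the smallest that 5 libraries allow. Over the 11 libraries left out in turn the rank probability was 0.864 to 0.905 against sites without TLE3 and 0.707 to 0.763 against sites with TLE3 in 1 or 2 lines. No paired analysis was possible because each tested value compares 2 sets of peaks within 1 library.

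The number of core sites depends on the lists. It was 3035 with the upper 50% of each list, 3409 with equally long lists of 21149 peaks, 9597 with a peak of either replicate, 2177 with both SKBR3 TLE3 replicates, and 2863 to 7718 with a library left out. The lowest of these, without SKBR3 TLE3 replicate 1, leaves replicate 2 to stand for SKBR3. Genes with a core site within 50 kb numbered 3145, 3447 and 2886 with the upper 50%, equally long lists and both SKBR3 replicates, 2984 within 10 kb, and 3730 to 6716 with a library left out.

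The percent near a gene end was 8.76 with centres within 250 bp, 9.09 with the upper 50%, 10.8 with either replicate, 15.5 with both SKBR3 replicates, 20.7 within 3 kb, 4.28 for ends of protein-coding genes, and 9.43 to 17.3 with a library left out. Its difference from sites without TLE3, -3.65 percentage points (-3.82 to 9.23 with a library left out), was -13.4 with equally long lists and -0.709 without T47D TLE3 replicate 1, and became 1.07 with either replicate, 2.65 with both SKBR3 replicates and 9.23 without SKBR3 TLE3 replicate 1. The cause was not tested.

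The percent with a peak of SKBR3 TLE3 replicate 2 was 34.1 with centres within 250 bp, 33.6 in a 500 bp window (chosen after seeing the data) and 37.0 to 39.8 with a library left out. It has no value where that library is part of the rule. Its difference from sites without TLE3 became -11.7 with equally long lists. The forkhead share was 24.3% with the upper 50%, 15.4% with both SKBR3 replicates and 16.1% to 19.8% with a library left out, and its difference from other sites became -2.92 percentage points with equally long lists. Depth is unknown and limits which weak peaks each list holds.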

Other observations

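Outside the core, TLE3 was present in all lines but T47D at 1171 constitutive sites, in all but MDA-MB-453 at 2535 and in all but SKBR3 at 3237. It was present at 2424 sites in MDA-MB-453 alone, at 2329 in SKBR3 alone and at 4513 in T47D alone. Presence is meant by the rule, so another line can still hold a peak of 1 replicate. Of the 9266 sites with TLE3 in 1 line, 5264 held a peak of MDA-MB-453 TLE3 replicate 1 and 7054 one of T47D TLE3 replicate 2. The core thus made up 47.4% of the constitutive sites with TLE3 in MDA-MB-453, 37.5% in T47D and 50.5% in SKBR3. These shares follow the length of the TLE3 lists, with 28354 TLE3 sites in T47D, 21768 in MDA-MB-453 and 21149 in SKBR3. Counted over all TLE3 sites of a line, core sites held 22.6% in T47D, 29.3% in MDA-MB-453 and 31.5% in SKBR3. Of all FOXA1 sites they held 5.85% in T47D, 4.80% in MDA-MB-453 and 7.20% in SKBR3.

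Within 1 kb of a gene end, SKBR3 TLE3 replicate 2 held a peak at 60.0% of core sites, against 56.3% of sites without TLE3. Away from gene ends it held one at 35.8% of core sites, against 24.9%. Its median percentile away from gene ends was 29.3 at core sites, against 78.5 at sites without TLE3.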
